A study of Homo sapiens with 55 samples.

Results

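The introns longer than 150 nt and up to 1000 nt that the deposited splicing tables list as retained-intron events number 3143, out of 6084 retained-intron events of any length and 110816 splicing events of all types with coordinates. They were chosen by length alone, from the coordinates in each event's name, and the same 3143 stand in all 4 tables. For each intron a table gives the fraction of the spliced isoform within that event, here called the spliced percentage. A fall means a lower share of that spliced form within the event. Overlapping introns are separate events, so their percentages are not shares of all the gene's RNA. Another 2159 retained introns are 150 nt or shorter and 782 are longer than 1000 nt.

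The RNA came from 44 polyadenylated-RNA libraries of 2 human cell lines. K562 is a leukaemia line and 293T an embryonic kidney line. The SF3B1 panel has K562 cells with the SF3B1 K700E knock-in and their WT counterparts. Each genotype has 2 guides against GPATCH8, 2 guides against SUGP1 and 1 control library whose guide, sgRenilla, is directed at the luciferase gene of the sea pansy. The SRSF2 panel has K562 cells that overexpress SRSF2 P95H or SRSF2 WT, and the U2AF1 panel K562 cells that overexpress U2AF1 S34F or U2AF1 WT, each with sgGPATCH8 or sgRenilla in 3 libraries a group. The WT groups of these 2 panels therefore also carry an introduced splicing factor. The 293T panel, all of WT genotype, has 4 sgGPATCH8, 4 sgSUGP1 and 2 sgRenilla libraries. Where its columns carry guide numbers, the labels have WT-1 or WT-2. Nothing in the labels says that replicates came from separate cultures, so p-values measure the spread between these libraries, which may be technical. The tables hold no gene levels and no read numbers, so the depth behind a percentage is unknown and the levels of the targeted genes were not checked here.

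Introns are removed by the spliceosome, which reads the donor site at the intron's start, and the branch point and acceptor site near its end. SF3B1 is the U2 snRNP subunit that sits at the branch point, U2AF1 contacts the AG of the acceptor and SRSF2 binds enhancer sequences in exons. SUGP1 and GPATCH8 carry a G-patch, a domain through which proteins activate DEAH-box helicases. An intron that stays in polyadenylated RNA can hold the transcript in the nucleus or, after export, send it to nonsense-mediated decay.

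An exact-length match to GENCODE 29 introns gave a gene name to 2967 of the 3143 introns, in 1929 genes. Of these genes, 1290 had 1 such intron and 639 had more, led by GAS5 with 10. Overlapping introns, which differ in 1 of their ends or in both, are common: the 3143 introns fall in 2534 separate loci and 1073 share a locus with another. The median length was 333 nt. Among the named introns, 2242 interrupted the coding sequence of a protein-coding transcript, 158 lay in 5' UTRs and 52 in 3' UTRs. The remaining 515 were in no transcript of the protein-coding type. That class can include transcripts annotated for nonsense-mediated decay, and 2836 of the 2967 named introns lie in protein-coding genes. Splice-site sequences could be read for 2766 introns, from GENCODE transcripts that retain them: 2694 (97.4%) began with GT and ended with AG, 58 had GC-AG ends and 3 had AT-AC ends.

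The sequences that carry the main results are shown here 5' to 3', with hg19 coordinates of the intron from the deposited files. Each donor has 3 exon and 6 intron bases and each acceptor 20 intron and 3 exon bases, and the capitals mark the first and the last pair of bases of the intron. The DDX11 set is shown because its introns fell with GPATCH8 loss in all 4 panels. Its 349, 395 and 400 nt introns start at the same donor (chr12:31242425-31242773, chr12:31242425-31242819 and chr12:31242425-31242824, + strand) and end at 3 acceptors, the second 46 nt and the third a further 5 nt downstream. The next intron upstream (251 nt, chr12:31242086-31242336) has a donor of its own.
DDX11 donor of the 349, 395 and 400 nt introns: acgGTagcc
DDX11 donor of the 251 nt intron: cagGTaaac
DDX11 acceptor of the 251 nt intron: ttctttctcctttgctgcAGaac

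MOV10 (236 nt, chr1:113242605-113242840, + strand) and MLXIPL (290 nt, chr7:73008314-73008603, - strand) are shown because they were lower with GPATCH8 loss in every panel. P2RX6 (550 nt, chr22:21381247-21381796, + strand) and SMARCD3 (969 nt, chr7:150937609-150938577, - strand) had the largest rise and the largest fall with K700E. The SRSF2 intron (498 nt, chr17:74730645-74731142, - strand) lies in the gene whose mutant was introduced.
MOV10 donor: agtGTgagc
MOV10 acceptor: cactcctctgtaccccacAGatt
MLXIPL donor: caaGTacgt
MLXIPL acceptor: tctctctgtctcccacccAGctg
P2RX6 donor: gagGTatgc
P2RX6 acceptor: tcagtccaagtcatacctAGgaa
SMARCD3 donor: cagGTaacc
SMARCD3 acceptor: ccccaattgtcctgcttcAGatt
SRSF2 donor: aagGTtatt
SRSF2 acceptor: tatgtatttttgtgcactAGgcg

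OXA1L encodes the insertase of the mitochondrial inner membrane. Its 182 nt intron (chr14:23239488-23239669, + strand) is printed whole. It was named for its low p with SUGP1 loss, though not called. It was lower in every sgSUGP1 library of both cell lines than in any sgRenilla library of the same genotype and cell line. That separation follows in part from the choice by p in these libraries.
OXA1L intron: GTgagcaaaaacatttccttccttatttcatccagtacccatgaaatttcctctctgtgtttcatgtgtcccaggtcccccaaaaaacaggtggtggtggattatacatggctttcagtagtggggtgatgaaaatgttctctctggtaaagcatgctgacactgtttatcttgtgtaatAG

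Most of the introns were mostly spliced. Values were present in all 44 libraries for 2421 introns, in some libraries for 589 and in no library for 133, and each library had a value for 2659 to 2805 of them. The median spliced percentage lay between 81% and 86% in every library, and the mean between 68% and 72.8%. Averaged over the WT sgRenilla groups of the 3 K562 panels, the median of the 2421 introns was 83.1%, with 1320 introns above 80%, 835 between 20% and 80% and 266 below 20%. Introns over 1000 nt had library medians of 88% to 93%, and introns up to 150 nt 80.5% to 87%.

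**Figure D1:**
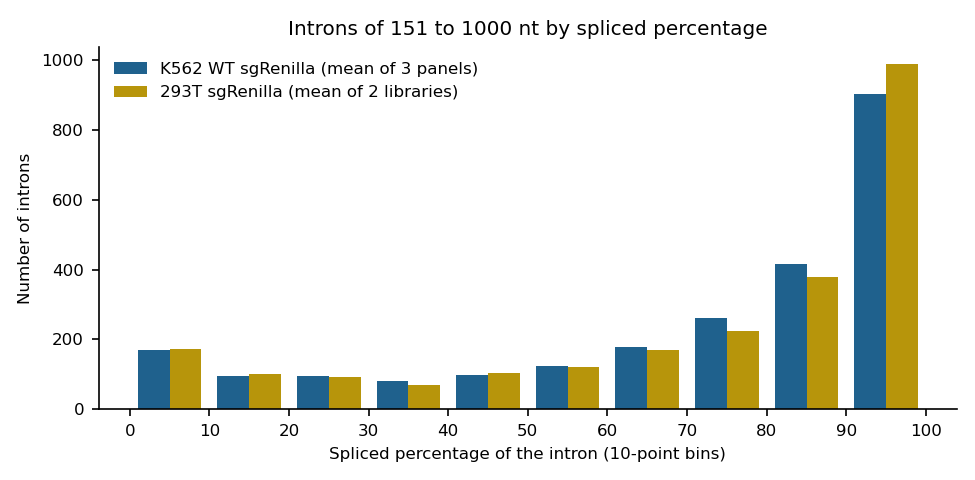
Number of introns (y axis) by spliced percentage in bins of 10 points (x axis), for the 2421 introns with a value in all 44 libraries; blue bars are K562 WT sgRenilla means and yellow bars 293T sgRenilla means. In both cell lines the bin from 90 to 100 holds the most introns (905 in K562 and 989 in 293T), and the bin from 0 to 10 holds 170 in K562 and 171 in 293T.

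At the upper extreme, PSMB4 (a proteasome subunit), GDI2 (a Rab regulator), RPS3 and RPL13A (ribosomal proteins) each had an intron at 100% in all 44 libraries, TAGLN2 at 99.5% to 100% and TTF2 at 99% to 100%, the last 2 with a range of 0.5 and 1 points. In all, 6 introns were at 100% and 321 at 95% or more in every library. At the other end, an intron of SUGP2 (chr19:19136266-19136663) was listed at 0 in all 44 libraries, and those of NECAP2, RELA and SLC52A2 ranged over 1 point and that of PI4KAP1 over 2 points from 0. In all, 64 introns stayed at 5% or less. An exact 0 in these tables can be a failed estimate.

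The median spliced percentage varied with the introns' position and composition. Coding introns had a median of 87.9% (n = 1772), against 59.2% for introns in no transcript of the protein-coding type (n = 389). The medians were 66.6% for 5' UTR introns (n = 111) and 57.6% for 3' UTR introns (n = 44). Last introns of their transcripts had a median of 69.1% (n = 262), against 85% for other introns (n = 2054). The 42 introns with GC-AG ends had a median of 55%, against 84% for the 2121 with GT-AG ends. Introns with a GC content of 60% or more had a median of 77.8% (n = 772), against 91.6% for those under 40% GC (n = 315). Across introns, Spearman's rho of the spliced percentage was -0.19 with intron GC, -0.22 with the GC of the flanks and 0.13 with the pyrimidine share before the acceptor (n = 2171 introns each), and 0.02 with length (n = 2421). These are descriptions across introns that share the same libraries, and introns are not independent replicates.

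The 2 cell lines were close. K562 and 293T sgRenilla means differed by less than 5 points for 1651 of the 2421 introns and by at least 20 points for 114, of which 58 were higher in K562 and 56 lower. The tables are separate, so these values are set side by side with no test. Between the WT sgRenilla groups of the K562 panels themselves, 34 to 166 introns lay at least 20 points apart. NID2 (nidogen, a basement membrane protein) had an intron at 1% to 22% in the 7 K562 libraries, against 91% in both 293T libraries. CD37 (a leukocyte tetraspanin) went the other way, with 73% to 76% in K562 and 5% in both 293T libraries. RPS28 had 71% to 87% in K562 and 9% and 12% in 293T, and SERHL2 79% to 97% in K562 and 21% and 23% in 293T. CCDC74B had 6% to 10% in K562, against 72% and 61% in 293T. NSUN5P2 had 0% to 31.5% in K562 and 71% and 65% in 293T, and PI4KAP1 (chr22:20397986-20398184) 2% to 37% in K562 and 74% and 70% in 293T. RBP5 had 85% to 92% in K562, while its 293T libraries disagreed, at 9% and 40%. RPS28, SERHL2, CCDC74B, NSUN5P2 and PI4KAP1 have near-identical copies elsewhere in the genome, so reads could be split between copies.

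The labelled cell lines were checked by whether events of marker genes had values. All events of the erythroid genes GATA1 (2 events), TAL1 (3) and ALAS2 (5) had values in every K562 library. In 293T libraries ALAS2 and GATA1 had at most 1 and TAL1 2 or 3. Events of PAX2 (6) and NEFM (1) had values in every 293T library and in no K562 library.

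Differences were tested with limma on the log2 ratio of spliced to retained fraction (offset 0.01), on every event of a panel with a value in every library and a group mean of at least 5% and of at most 95% somewhere. P-values were adjusted over all those events by the Benjamini-Hochberg method. An intron was called at an adjusted p under 0.05 and a difference of at least 5 percentage points. Of the introns described here, 2078 could be tested with SF3B1, 2017 with SRSF2, 1950 with U2AF1 and 2044 in 293T.

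The clearest response to GPATCH8 loss was in DDX11, a DNA helicase of sister-chromatid cohesion. Its 349 and 400 nt introns were at 7% or less in every sgGPATCH8 library of every panel. The 400 nt intron (chr12:31242425-31242824) was at 5% and 6% in K700E sgGPATCH8, against 62% in K700E sgRenilla, and at 3% and 3.5% in SF3B1 WT sgGPATCH8, against 52% in SF3B1 WT sgRenilla. In the SRSF2 panel it was at 3%, 4% and 3% in P95H sgGPATCH8, against 41%, 29% and 36% in P95H sgRenilla, and at 3%, 3% and 2% in SRSF2 WT sgGPATCH8, against 26%, 34% and 25% in SRSF2 WT sgRenilla. In the U2AF1 panel it was at 2%, 1% and 1% in S34F sgGPATCH8, against 28%, 23% and 28% in S34F sgRenilla, and at 4%, 3% and 3% in U2AF1 WT sgGPATCH8, against 29%, 39% and 28% in U2AF1 WT sgRenilla. In 293T it was at 3%, 2%, 3% and 3% in sgGPATCH8, against 30% and 42% in sgRenilla. In each genotype and cell line every sgGPATCH8 library lay below every sgRenilla library.

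The 4 called DDX11 introns end at the 3 acceptors of this region. The 400 nt intron differed in the SF3B1 panel by -52.6 points, or -4.61 ± 0.16 (SE) on the log2 ratio scale (limma adjusted p = 0.00404). The 395 nt intron fell in 293T by 39.2 points (log2 -2.56 ± 0.24, limma adjusted p = 0.0329), with 18%, 20%, 16% and 17% in sgGPATCH8 against 52% and 62% in sgRenilla. It fell by 37.7 points in U2AF1 WT (limma adjusted p = 0.00471) and by 38.7 points in U2AF1 S34F (limma adjusted p = 0.00167). The 734 nt intron (chr12:31242086-31242819), which joins the upstream donor to the middle acceptor and so skips the exon between, fell by 40.3 points in SRSF2 WT (limma adjusted p = 0.000727) and by 45 points in SRSF2 P95H (limma adjusted p = 0.00018). Its SF3B1 panel difference was -42.6 points but was not called (limma adjusted p = 0.073). The 251 nt intron upstream was between 81% and 94% in all sgGPATCH8 libraries and between 86% and 94.5% in all sgRenilla libraries, and was called in none of these comparisons. In 293T all 4 sgGPATCH8 libraries of this intron, at 81% to 83%, lay below the sgRenilla libraries at 86% and 88% (limma adjusted p = 0.663). With sgSUGP1 the 400 nt intron stood at 54% to 56.5% in the SF3B1 panel, while in 293T it was at 22%, 25%, 26% and 18%, below both sgRenilla libraries but not called (limma adjusted p = 0.603). DDX11 has near-identical copies, among them the pseudogene DDX12P, so its percentages may mix reads of several loci. These introns share reads and are not separate lines of evidence. Each percentage belongs to its own event, so a low value is not the share of DDX11 RNA that retains the intron.

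**Figure D2:**
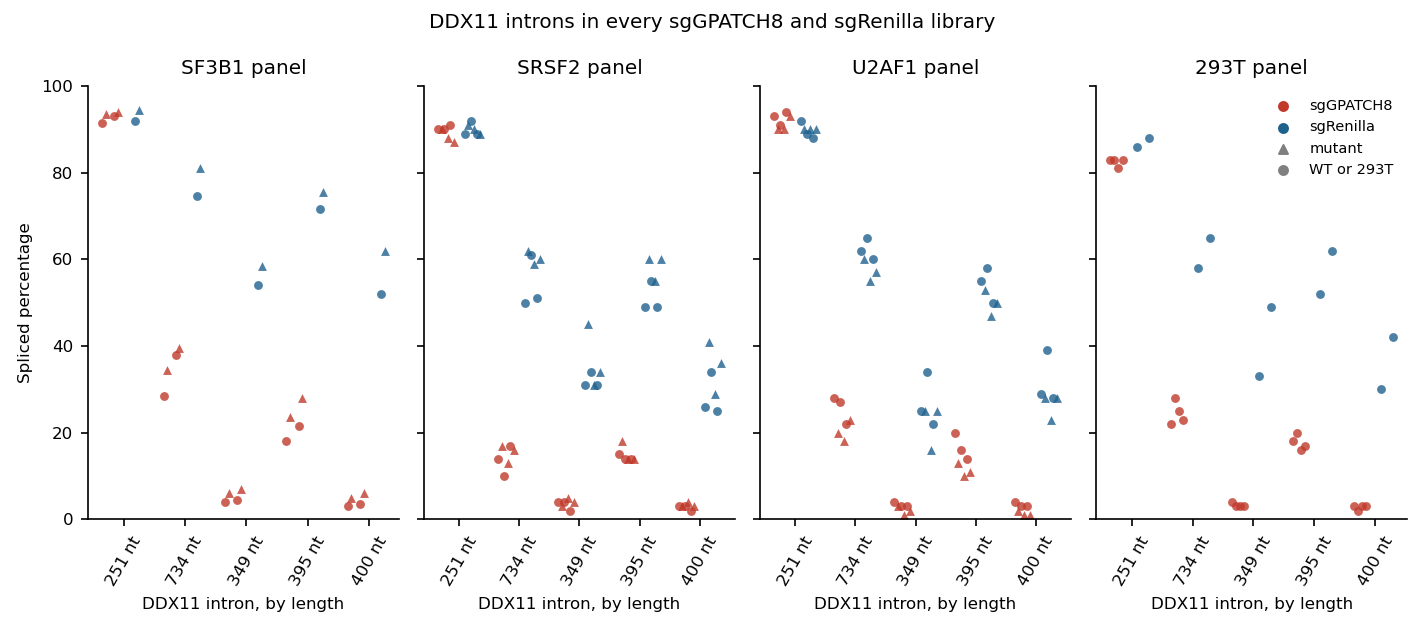
Spliced percentage (y axis) of the 5 DDX11 introns, named by length (x axis), in each sgGPATCH8 library (red) and each sgRenilla library (blue) of the 4 panels; triangles are mutant and circles WT or 293T libraries. The 251 nt intron is above 80% in both, while the 4 others are lower in every sgGPATCH8 library, with the 349 and 400 nt introns at 7% or less.

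Across the genome these calls were rare. For GPATCH8 loss in the SF3B1 panel 3 of 2078 introns were called, all in DDX11, against 0.00984% of all 50823 events tested. In U2AF1 WT and in U2AF1 S34F the same 4 DDX11 introns were the only calls among 1950, against 0.0322% and 0.0345% of 43468 events, and in 293T they were the only calls among 2044, against 0.0673% of 49031 events. In 2 panels the DDX11 calls needed the full set of libraries. Leaving out any sgGPATCH8 library in the SF3B1 panel, or any sgGPATCH8 or sgRenilla library in 293T, ended all of them. The differences were then -52.9 to -52.4 points for the 400 nt intron in the SF3B1 panel and -44.2 to -34.2 points for the 395 nt intron in 293T. In U2AF1 WT 1 of the 4 calls was left without sgRenilla replicate 2 and 2 without sgGPATCH8 replicate 3.

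Introns of MOV10, MLXIPL and C20orf96 were, beside those of DDX11, called lower with GPATCH8 loss in both SRSF2 genotypes and lower, uncalled, in every other panel. MOV10 is an RNA helicase, and its intron was at 38%, 38% and 40% in SRSF2 WT sgGPATCH8, against 63%, 66% and 63% in SRSF2 WT sgRenilla (limma adjusted p = 0.00169). In P95H cells it was at 47%, 45% and 45% with sgGPATCH8, against 61%, 68% and 64% with sgRenilla (limma adjusted p = 0.00351). In 293T it was at 44%, 41%, 53% and 46% with sgGPATCH8, against 75% and 82% with sgRenilla, a difference of -32.5 points that was not called (limma adjusted p = 0.0676). In the SF3B1 panel it was at 49.5% and 54.5% in K700E and 46.5% and 53% in WT with sgGPATCH8, against 84.5% in K700E and 82.5% in WT with sgRenilla (-32.6 points, limma adjusted p = 0.073, not called). In the U2AF1 panel it was at 38% to 39% in S34F and 43% to 46% in WT with sgGPATCH8, against 59% to 61% in S34F and 58% to 65% in WT with sgRenilla, which was not called either (limma adjusted p = 0.0952 in S34F and 0.314 in WT). The sgGPATCH8 and sgRenilla groups of MOV10 overlapped in no panel.

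MLXIPL encodes ChREBP, a glucose-responsive transcription factor. Its intron was at 41%, 49% and 40% in P95H sgGPATCH8, against 76%, 81% and 77% in P95H sgRenilla (log2 -2.17 ± 0.20, limma adjusted p = 0.000416). In SRSF2 WT it was at 57%, 52% and 54% with sgGPATCH8, against 76%, 77% and 71% with sgRenilla (limma adjusted p = 0.0257). In the SF3B1 panel it was at 39.5% and 42.5% in K700E and 46% and 43% in WT with sgGPATCH8, against 71.5% in K700E and 75% in WT with sgRenilla (limma adjusted p = 0.0942, not called). It differed by -30.7 points in U2AF1 S34F, -24.3 in U2AF1 WT and -21.2 in 293T, none of them called (limma adjusted p = 0.0952, 0.314 and 0.282).

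With the K700E knock-in, averaged over the guide targets, 45 of the 2078 introns rose and 21 fell, in 37 and 20 named genes. All events gave 3.35% called (2.13% higher and 1.22% lower), and the introns gave 3.18%, so their share was near the background. The introns that rose included P2RX6, AP5Z1, APBB3, TCIRG1 and SYTL1, and those that fell SMARCD3, DERL2, FCGRT, SLC26A9, HYAL1 and BRD9. P2RX6, an ATP-gated channel subunit, had 47% in K700E sgRenilla, 51% and 47% in K700E sgGPATCH8 and 51% and 50.5% in K700E sgSUGP1, against 7%, 7%, 8%, 24.5% and 33.5% in the matching WT libraries (log2 2.70 ± 0.17, limma adjusted p = 0.00713). The 2 WT sgSUGP1 libraries lay between the other WT libraries and the K700E libraries.

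The same order held for APBB3, an adaptor that binds the amyloid precursor protein. Its intron (chr5:139941308-139941684) was at 45.5%, 40.5%, 37.5%, 44.5% and 50% in the K700E libraries, in the same order of guides, against 10%, 8.5%, 11.5%, 30% and 31% in WT, the last 2 values being the sgSUGP1 libraries (limma adjusted p = 0.00756). TCIRG1, a subunit of the vacuolar proton pump, was at 59%, 59.5%, 58%, 65% and 64.5% in K700E, against 31%, 24.5%, 23%, 57% and 50% in WT (limma adjusted p = 0.0111). AP5Z1, a subunit of the AP-5 adaptor complex, differed by 28.2 points (limma adjusted p = 0.0288) and SYTL1, a Rab27 effector, by 22.9 points (limma adjusted p = 0.0449). An intron at chr1:145336333-145336928 that matched no GENCODE intron differed by 21.5 points (limma adjusted p = 0.04).

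Among the falls, SMARCD3 and BRD9 encode subunits of BAF chromatin remodelling complexes. SMARCD3 was at 15.5%, 13%, 17.5%, 13% and 17.5% in K700E, against 41.5%, 49.5%, 50.5%, 31.5% and 38.5% in WT (log2 -1.95 ± 0.18, limma adjusted p = 0.012), and the groups did not overlap. BRD9 (chr5:868920-869152) was at 51.5%, 60%, 65.5%, 51.5% and 52% in K700E, against 84%, 84%, 77.5%, 57% and 64% in WT (limma adjusted p = 0.0261). The WT sgSUGP1 libraries of BRD9 fell within the K700E range. DERL2, a factor of ER-associated degradation, differed by -25.8 points and FCGRT, the neonatal Fc receptor, by -24.2 (limma adjusted p = 0.0449 and 0.0482). SLC26A9, an anion transporter, differed by -21.8 points and HYAL1, a hyaluronidase, by -20.6 (limma adjusted p = 0.0437 and 0.0231). Several FCGRT and SLC26A9 libraries had a value in only 1 sequencing run. Between the runs of a library HYAL1 moved by up to 30 points and SLC26A9 by up to 34.

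**Figure D3:**
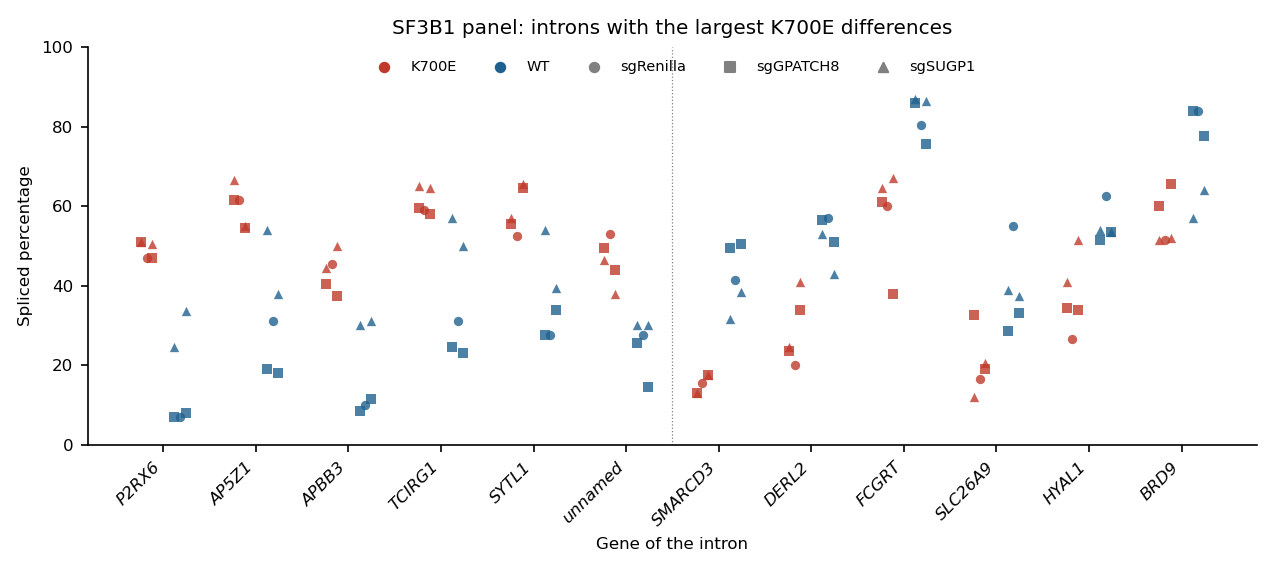
Spliced percentage (y axis) of the 12 introns with the largest K700E differences (x axis, rises left and falls right of the dotted line) in the 5 K700E libraries (red) and the 5 WT libraries (blue) of the SF3B1 panel; circles are sgRenilla, squares sgGPATCH8 and triangles sgSUGP1. P2RX6 and SMARCD3 do not overlap between genotypes, while SYTL1, SLC26A9 and BRD9 do, and the genotypes of HYAL1 meet.

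As a description of introns chosen by these same libraries, the 45 that rose had a median K700E difference of 13.5 points within sgRenilla, 13.8 within sgGPATCH8 and 10.5 within sgSUGP1 libraries. K700E and WT libraries did not overlap for 32 of the 45 risen and 10 of the 21 fallen introns. A lack of overlap, as for SMARCD3, follows in part from the choice. The risen introns were GC-rich (median 60.8% over the 36 with sequence) and 35 of 45 were coding, while the fallen ones had a median GC of 48.7% (19 with sequence) and 12 of 21 were coding. The tested introns of the panel had a median GC of 57.3%, and 1469 of 2078 were coding; these differences were not tested. Leaving out 1 of the 8 sgGPATCH8 and sgSUGP1 libraries at a time left 7 to 15 called introns, and blocking on guide left 26. P2RX6 and SMARCD3 were called under all 14 alternatives tried, APBB3 under 13 and TCIRG1 under 12. AP5Z1, HYAL1 and BRD9 were called under 4 of 14. DERL2 and the intron that matched no GENCODE intron were called under 3 of 14, and SYTL1 under 2. FCGRT and SLC26A9 were each called under 2 of 12. The 293T sgSUGP1 libraries had no part in these calls. Of the 18 fallen introns tested there, 15 were lower with sgSUGP1 (median -4.38 points), where 1416 of all 2044 introns were lower (median -1.5 points). Of the 39 risen introns, 20 were higher (median 0.5 points).

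SUGP1 loss gave no called intron in either cell line. In the SF3B1 panel limma called 0 of 2078 introns and 0.0% of all events, and 231 introns had an unadjusted p under 0.05. In 293T limma called 0 of 2044 introns, against 0.0428% of all events, and 147 had an unadjusted p under 0.05. OXA1L came closest in 293T (limma adjusted p = 0.102). It was at 65%, 54%, 68% and 57% with sgSUGP1, against 83% and 85% with sgRenilla (log2 -1.68 ± 0.23), while its sgGPATCH8 libraries were at 82% to 85%. In the SF3B1 panel OXA1L was at 51.5% and 52% in K700E sgSUGP1, against 62% in K700E sgRenilla, and at 65.5% and 60.5% in WT sgSUGP1, against 84% in WT sgRenilla (-15.6 points, limma adjusted p = 0.138, not called). OXA1L was also among the introns that fell with K700E (-18.2 points, limma adjusted p = 0.0137). Within each genotype and cell line its sgSUGP1 and sgRenilla libraries did not overlap.

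The other introns closest to a call for SUGP1 loss were PRPF38B and SETMAR in the SF3B1 panel and ADAM8 and CCDC78 in 293T. PRPF38B, a splicing factor, differed by -26.9 points in the SF3B1 panel (limma adjusted p = 0.0678), and SETMAR, a histone methyltransferase fused to a transposase, by -15.4 points (limma adjusted p = 0.14). The PRPF38B value varied with the sequencing run: between a library's runs it moved by 33 points in the median and by at most 51, where all introns moved by 3 in the median. In 293T, ADAM8, a membrane metalloprotease, was at 82%, 83%, 86% and 79% with sgSUGP1, against 97% and 94% with sgRenilla (limma adjusted p = 0.206), and CCDC78 at 26%, 12%, 25% and 19%, against 49% and 42% (limma adjusted p = 0.207).

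No intron was called for a difference of GPATCH8 loss between K700E and WT, against 0.0295% of all events, and 120 introns had an unadjusted p under 0.05. The closest were PRPF38B (-50.2 points), CD164 (-12.5 points) and ZNF181 (5.25 points), with limma adjusted p of 0.0802, 0.122 and 0.181. CD164, a sialomucin, was at 3% and 3% in K700E sgGPATCH8 and 12.5% in K700E sgRenilla, against 4% and 6% in WT sgGPATCH8 and 2% in WT sgRenilla, so its value rested on 1 sgRenilla library, which was at 5% in sequencing run 1 and 20% in run 2. PRPF38B was at -111 points from run 2 alone and at 10.5 points, the other direction, from run 1 alone. With 1 such library in each genotype, the spread of sgRenilla is borrowed from the other groups.

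Most introns had a slightly higher spliced percentage in SRSF2 P95H cells. With sgRenilla, 31 of 2017 introns rose and 3 fell, a call for 1.69% of introns and 1.08% of all events. Among all 43963 events 212 were called higher (0.482%) and 263 lower (0.598%). Called or not, 1513 introns were higher and 430 lower in P95H, with a median of 2 points, while 21985 of all 43963 events were higher, with a median of 0.33 points. Retained introns up to 150 nt and over 1000 nt had medians of 1.67 points each. In the other comparisons the medians over the introns lay between -1.5 points (SUGP1 loss in 293T) and 1 point (GPATCH8 loss in U2AF1 WT). None of these shifts was tested. The mean over introns was 71.1% to 71.6% in the P95H sgRenilla libraries and 69% to 70.2% in the SRSF2 WT sgRenilla libraries.

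SRSF2's own intron fell. It was at 30%, 28% and 30% in P95H sgRenilla, against 49%, 51% and 51% in SRSF2 WT sgRenilla (log2 -1.26 ± 0.12, limma adjusted p = 0.00551). With sgGPATCH8 it was at 26%, 27% and 26% in P95H, against 50%, 51% and 54% in WT, so the groups did not overlap with either guide. The introduced SRSF2 and the cells' own copy cannot be told apart in these values. COL7A1 (chr3:48608712-48609433), collagen of anchoring fibrils, was at 24%, 31% and 20% in P95H sgRenilla, against 55%, 53% and 45% in WT sgRenilla (limma adjusted p = 0.0289). KCP (chr7:128518777-128519575), a secreted modulator of BMP signalling, was at 39%, 29% and 36%, against 72%, 80% and 80% (limma adjusted p = 0.0344).

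Among the largest rises, MCOLN1, a lysosomal cation channel, was at 68%, 70% and 66% in P95H sgRenilla, against 46%, 53% and 49% in WT sgRenilla (limma adjusted p = 0.0285). CHKB, choline kinase beta, was at 64%, 54% and 56%, against 41%, 38% and 40% (limma adjusted p = 0.0213), and its intron is also annotated in a second, overlapping gene. The P95H and WT libraries of both introns did not overlap, which follows in part from their choice by these libraries. ZNF655, a zinc finger protein, differed by 18.3 points and NAPEPLD, an enzyme of N-acylethanolamine synthesis, by 17.7 (limma adjusted p = 0.0411 and 0.0236). NADK, the NAD kinase, differed by 17.3 points and ABHD17A, a depalmitoylase, by 15 (limma adjusted p = 0.0478 and 0.0198). In the sgGPATCH8 libraries, which enter the spread of the fit but not these differences, 26 of the 31 risen introns were again higher in P95H (median 4.67 points), where 1288 of all 2017 introns were higher (median 1.33 points). Leaving out any 1 of the 6 sgRenilla libraries left 1 to 4 calls and blocking on replicate number left 2, and SRSF2 was the 1 named intron called under all 10 alternatives.

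GPATCH8 loss in the SRSF2 WT cells called 12 of 2017 introns, 3 higher and 9 lower, against 0.491% of events (0.207% higher and 0.284% lower). The falls were in 5 genes, of which DDX11, MOV10 and MLXIPL are given above. The 342 nt intron of PNCK, a calmodulin-dependent kinase, was at 16%, 11% and 7% with sgGPATCH8, against 40%, 47% and 62% with sgRenilla (limma adjusted p = 0.0141). It was also called in P95H (-29.3 points, limma adjusted p = 0.0339). In the SF3B1 panel it differed by less, -2.12 points, and in 293T by -6, uncalled in both. Of the 9 introns that fell, all 9 were lower in U2AF1 WT, and 8 of 9 in the SF3B1 panel and in 293T. C20orf96 was at 12%, 11% and 11%, against 21%, 26% and 18% (limma adjusted p = 0.0461), and differed by -16.2 points in the SF3B1 panel, -10 in U2AF1 WT, -9 in U2AF1 S34F and -5.5 in 293T, none of them called. The rises were CC2D1B (15 points), TMEM273 (14.7 points) and PFDN5 (5 points), a prefoldin subunit that was at 95%, 95% and 96% with sgGPATCH8, against 90%, 91% and 90% (limma adjusted p = 0.0257). Leaving out 1 of the compared libraries at a time left 5 to 9 called introns, and the DDX11 and MOV10 introns named here were called under all 10 alternatives.

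The largest set of calls came from GPATCH8 loss in P95H cells, where 107 introns fell and 36 rose. That was 7.09% of introns, against 4.84% of all events (2.95% lower and 1.89% higher). Retained introns up to 150 nt gave 5.06% and those over 1000 nt 7.17%, and the difference between these shares was not tested. The 107 falls lay in 88 loci and 76 named genes, with a median of -12 points, and the 36 rises in 34 loci and 33 named genes, with a median of 12.2 points. Leaving out 1 of the compared libraries at a time left 74 to 88 calls, and blocking on replicate number left 93. For P95H sgGPATCH8 replicate 3 the labels list 2 sequencing runs, and the sources used here do not say whether its 1 column holds either or both.

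The falls included genes of several kinds. AZIN2, an antizyme inhibitor of polyamine metabolism, was at 20%, 30% and 25% in P95H sgGPATCH8, against 91%, 72% and 90% in P95H sgRenilla (limma adjusted p = 0.0217). Its SRSF2 WT libraries spread widely, at 50%, 84% and 55% with sgGPATCH8 and 64%, 94% and 77% with sgRenilla. TRPV6, a calcium channel, was at 15%, 7% and 3% with sgGPATCH8, against 60%, 35% and 20% with sgRenilla in P95H (limma adjusted p = 0.0437), and an intron at chr11:6591627-6591849 that matched no GENCODE intron was at 34%, 25% and 57%, against 76%, 74% and 62% (limma adjusted p = 0.0429).

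Among the rises, TYMP, thymidine phosphorylase, whose gene overlaps SCO2, was at 79%, 82% and 72% in P95H sgGPATCH8, against 35%, 40% and 32% in P95H sgRenilla (limma adjusted p = 0.0491). DCUN1D4, a factor of cullin neddylation, was at 60%, 62% and 54%, against 15%, 28% and 25% (limma adjusted p = 0.00579). In SRSF2 WT cells DCUN1D4 was at 30%, 16% and 27% with sgGPATCH8 and 29%, 28% and 25% with sgRenilla. TIAL1, an RNA-binding protein of stress granules, was at 80%, 82% and 80%, against 60%, 64% and 62% (limma adjusted p = 0.00171). ALKBH6 and CDK5RAP3 each differed by 18.7 points (limma adjusted p = 0.0361 and 0.042). Of these 12 introns with the largest changes, those of DDX11, MLXIPL, DCUN1D4, COL7A1, TIAL1 and SNHG1 were called under all 10 alternatives.

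**Figure D4:**
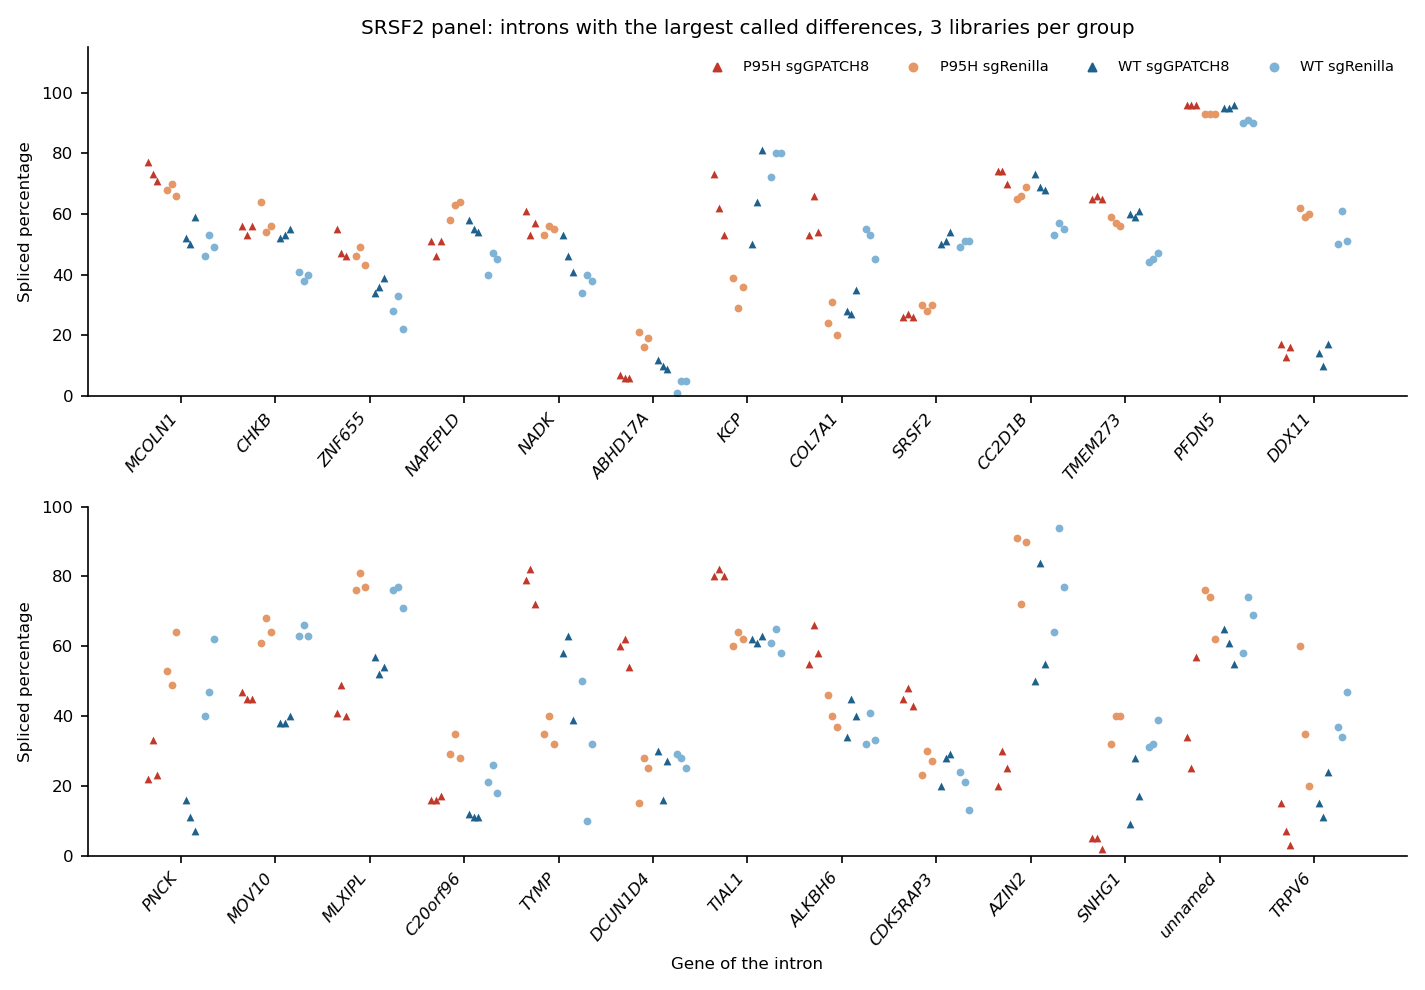
Spliced percentage (y axis) of the introns with the largest called differences in the SRSF2 panel (x axis, by gene), with 3 libraries per group: P95H sgGPATCH8 (red triangles), P95H sgRenilla (orange circles), WT sgGPATCH8 (dark blue triangles) and WT sgRenilla (light blue circles). DDX11 and MOV10 are lower with sgGPATCH8 in both genotypes, SRSF2 is lower in P95H with both guides, and COL7A1 is lower with P95H alone and with GPATCH8 loss alone but not with both.

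COL7A1 was the 1 intron called for a difference of GPATCH8 loss between P95H and WT, among 2017 and against 0.0614% of events, with 314 introns at an unadjusted p under 0.05. In P95H it was at 53%, 66% and 54% with sgGPATCH8, against 24%, 31% and 20% with sgRenilla (limma adjusted p = 0.00438). In SRSF2 WT it was at 28%, 27% and 35% with sgGPATCH8, against 55%, 53% and 45% with sgRenilla, a difference of -21 points that was not called (limma adjusted p = 0.106). The difference of differences was 53.7 points (log2 3.27 ± 0.40, limma adjusted p = 0.0301). Leaving out 1 library at a time ended this call in 11 of 12 cases, with values of 49.5 to 56.7 points. DGCR8, a subunit of the Microprocessor (20.3 points), OGG1, the 8-oxoguanine glycosylase (-28.7 points), and FAM83A-AS1 (14.7 points) each had a limma adjusted p of 0.0533 and were not called.

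Introns of genes that host small nucleolar RNAs were among those that fell with GPATCH8 loss in P95H. Such genes carry the guide RNAs of ribosomal RNA modification inside their introns. Of 23 tested introns in 5 genes of a list of 14 host genes, 15 fell and 1 rose with GPATCH8 loss in P95H, with a median of -7.67 points, against 107 falls and 36 rises among all 2017 introns with a median of -0.33 points. GAS5 and SNHG1, noncoding RNAs whose exons have no known protein product, held 13 of the falls. The 370 nt GAS5 intron (chr1:173833443-173833812) was at 62%, 60% and 59% in P95H sgGPATCH8, against 81%, 82% and 83% in P95H sgRenilla (limma adjusted p = 0.000512). In SRSF2 WT it was at 79%, 78% and 80% with sgGPATCH8 and 79%, 82% and 81% with sgRenilla, and those groups overlapped. The 188 nt GAS5 intron (chr1:173834421-173834608) was at 60%, 58% and 60% in P95H sgGPATCH8, against 77%, 78% and 77% in P95H sgRenilla (limma adjusted p = 0.00103). In SRSF2 WT that intron was at 72%, 71% and 71% with sgGPATCH8, against 77%, 78% and 77% with sgRenilla.

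A pair of SNHG1 introns shares a donor (gagGTtagt) and differs in the acceptor, shown because their values differ. The 168 nt intron (chr11:62621322-62621489, - strand) was at 5%, 5% and 2% in P95H sgGPATCH8, against 32%, 40% and 40% in P95H sgRenilla (log2 -3.61 ± 0.44, limma adjusted p = 0.00223), and in SRSF2 WT at 9%, 28% and 17%, against 31%, 32% and 39%. The 184 nt intron (chr11:62621306-62621489) was at 81%, 79% and 77% in P95H sgGPATCH8, against 85%, 87% and 86% in P95H sgRenilla (limma adjusted p = 0.0466).
SNHG1 acceptor of the 168 nt intron: gaggaatctttcacccacAGctt
SNHG1 acceptor of the 184 nt intron: acagctttgtttttctctAGgta

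None of the 23 introns was called for GPATCH8 loss in SRSF2 WT (median -1.33 points), in the SF3B1 panel (-1.5), in U2AF1 WT (0.33), in U2AF1 S34F (-1.33) or in 293T (1.5). For the difference between P95H and WT they had a median of -5.67 points and 0 calls. The introns of GAS5 and of SNHG1 lie in the same transcripts and are not independent of each other.

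**Figure D5:**
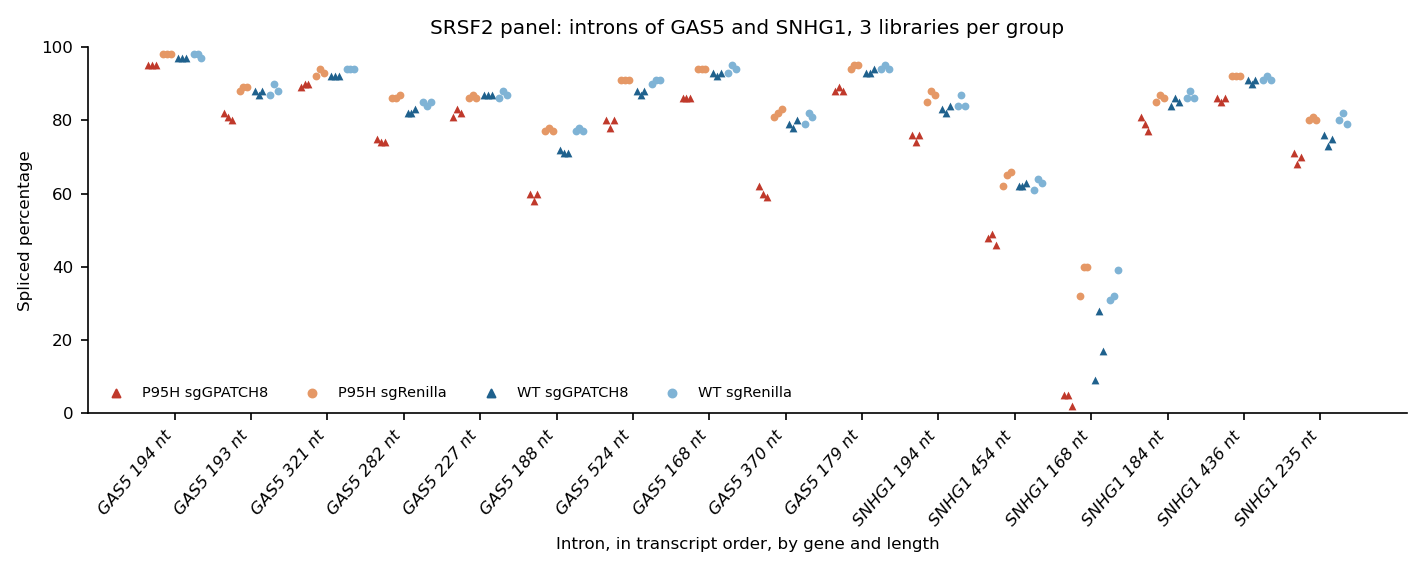
Spliced percentage (y axis) of the 10 GAS5 and 6 SNHG1 introns in transcript order, named by length (x axis), with 3 libraries per group of the SRSF2 panel; P95H sgGPATCH8 libraries are red triangles. For each GAS5 and SNHG1 intron the P95H sgGPATCH8 libraries lie below the P95H sgRenilla libraries, and the 168 nt SNHG1 intron is the lowest, at 5% or less.

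The introns called for GPATCH8 loss in P95H were then read in the other comparisons of GPATCH8 loss, whose differences use none of its libraries, though SRSF2 WT shares the spread of its fit. Of the 107 that fell, 84 were lower in SRSF2 WT (median -2.33 points) and 9 were called there, where all 2017 introns had a median of 0.33 points. In U2AF1 S34F 92 of 107 were lower (median -3), in U2AF1 WT 68 of 107 (median -1), in the SF3B1 panel 81 of 105 (median -2.25) and in 293T 64 of 102 (median -1.5). Over all tested introns the medians there were 0, 1, -0.625 and 0.25 points. Of the 36 that rose, 23 were higher in SRSF2 WT, 29 in U2AF1 S34F, 29 in U2AF1 WT, 25 of 34 in 293T and 13 of 35 in the SF3B1 panel. The medians of the risen introns there were 3, 3, 3, 2.75 and -0.5 points.

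U2AF1 S34F gave no called intron among 1950 with sgRenilla, against 0.0023% of all events, with 120 introns at an unadjusted p under 0.05. The fit had no block on replicate number, though same-numbered U2AF1 libraries had correlated deviations (0.0750 to 0.402). TRIM41, RBM3 and CD37, given below, stayed uncalled under all 10 alternatives, which include that block. They do not stand for the other introns, so the lack of calls is stated for the fit without a block. Called or not, 1328 introns were lower and 534 higher in S34F, with a median of -1.33 points, while 22587 of all 43468 events were lower, with a median of -0.33 points. Retained introns up to 150 nt and over 1000 nt had medians of -1 point each. TRIM41, an E3 ubiquitin ligase, was at 11%, 7% and 6% in S34F, against 27%, 23% and 21% in WT (limma adjusted p = 0.133). RBM3, a cold-inducible RNA-binding protein, was at 90%, 89% and 87%, against 80%, 75% and 74% (limma adjusted p = 0.151), and CD37 at 58%, 59% and 56%, against 73%, 73% and 75% (limma adjusted p = 0.166). These are the introns with the lowest p, so that their sgRenilla libraries stand apart follows from the choice. No intron was called for a difference of GPATCH8 loss between S34F and WT (0.0% of all events, 48 introns at an unadjusted p under 0.05). The closest, PLA2G6 (-16 points), NXF2B (-22.3) and AP000787.1 (-44), had a limma adjusted p of 1, and NXF2B has a near-identical copy.

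The other gene lists are given by their counts, to be read against the 4.84% of all events and 7.09% of the introns called with GPATCH8 loss in P95H. Among SR proteins and CLK kinases, 13 of 16 introns were tested in the SRSF2 panel, and in that comparison 3 rose and 1 fell. TRA2A, a splicing activator, had an intron (chr7:23561460-23561972) at 75%, 70% and 73% in P95H sgGPATCH8, against 52%, 62% and 54% in P95H sgRenilla (limma adjusted p = 0.0129), and a shorter one with the same acceptor rose by 15.7 points. SRSF1 had an intron that fell (chr17:56081363-56082283), with 9%, 8% and 9% in P95H sgGPATCH8, against 19%, 21% and 19% in P95H sgRenilla (limma adjusted p = 0.000574), and another that rose by 10.3 points. Among helicase, cohesion and repair genes, 6 of 8 tested introns fell in that comparison (median -29.3 points). These were the overlapping DDX11 introns and 2 OGG1 introns that share a donor and fell by 26.7 and 21.7 points. With GPATCH8 loss in 293T, 4 of 8 fell (median -18.9 points), all of them DDX11 introns of 1 locus, against 0.0673% of all events there. The counts therefore speak for DDX11 and OGG1 and not for the list as a whole. Among genes with known detained introns, CIRBP rose by 9.33 points with GPATCH8 loss in P95H and was the 1 of 14 introns called, a share near that of all the introns. Among the targeted factors and U2 partners, the SRSF2 intron and an intron of U2AF1L4 (-17.3 points with GPATCH8 loss in P95H) were called, of 5 tested. No tested intron of the heme and erythroid list (differences of -4.25 to 3 points) or of the list of hnRNP and other RNA-binding proteins (-5.33 to 12.3 points) was called in any comparison. No gene of the nonsense-mediated decay list had a named retained-intron event of this length.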

How the data were processed

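The 4 deposited tables give, per splicing event and column, the fraction of the isoform listed first, from 0 to 1 with 2 decimals. For retained introns that isoform is the spliced one. The build is hg19 (GRCh37) and RSEM 1.2.4, Bowtie, TopHat2 2.0.8b and TopHat are named, per the submitters' processing notes. No role is given for these tools. Libraries were strand-specific (dUTP), per the labels' protocols. Whether counting used strand is not given in the sources used here. Depth is unknown, so no interval was computed.

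The 55 samples have 54 columns. In the SF3B1 panel the fractions of a library's sequencing runs were averaged, which left 44 libraries. A library with a value in only 1 run kept that value. In 293T each guide was a fitted group and the guides against a gene were averaged equally. K700E was averaged over guide targets, and GPATCH8 or SUGP1 loss in the SF3B1 panel over genotypes.

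Introns were named by exact length against GENCODE 29 introns, with the coordinate shift voted by neighbouring junctions (25 on each side, at least 5 votes). No coordinate was converted. Tests used limma 3.58.1 in R 4.3.3, checked on simulated data. Named introns are the 6 largest called rises and falls per comparison (with fewer than 3 calls, also the 3 uncalled introns with the lowest p and at least 5 points), up to 6 per gene list, the 6 least and 6 most spliced, and the 8 with the largest difference between cell lines. The members, lists and tests were chosen with earlier results of these data known. Alternatives were another offset, 1 missing library allowed, no limits on group means, each sequencing run alone, each library left out, and replicate blocks. Some introns, marker genes and sequences are not reported here.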

Additional observations from a re-analysis of the deposited data

Results flagged for a closer look

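COL7A1 stood apart because its change with GPATCH8 loss differed between the 2 SRSF2 genotypes, by a test of the difference itself (53.7 points, limma adjusted p = 0.0301). Its rise in P95H was called, and its lower value in WT was not. In 293T, 16 groups of 4 libraries, each holding different guides, were examined for a library far from the others. In the 251 nt DDX11 intron an sgGPATCH8 library was lowest at 81.0% and an sgSUGP1 library highest at 83.0%, each with the other 3 libraries at a single value. In the 349 nt DDX11 intron an sgGPATCH8 library was highest at 4.0%, and in the 400 nt DDX11 intron another was lowest at 2.0%. These gaps were 1 or 2 points wide. Fractions are given with 2 decimals and other libraries were tied, so the rate of such flags by chance is unknown and nothing is drawn from them.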

How the results depend on the processing

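Numbers of called introns moved with the processing, and the cause was not tested. K700E (66 introns) gave 5 from sequencing run 1 alone and 13 from run 2 alone. GPATCH8 loss in the SF3B1 panel (3) gave 0 from run 2 alone and 13 with no limits on group means. SUGP1 loss there (0) gave 1 from run 2 alone and 1 with no limits, and the interaction of K700E and GPATCH8 loss (0) gave 6 and 2. With no limits, P95H against WT (34) gave 58, the interaction of P95H and GPATCH8 loss (1) gave 27, GPATCH8 loss in 293T (4) gave 7 and SUGP1 loss in 293T (0) gave 1. An offset of 0.05 gave 6 for that P95H interaction. Leaving out 1 library of the comparison at a time gave 7 to 15 for K700E, 0 for GPATCH8 loss in the SF3B1 panel and in 293T, 1 to 4 for P95H, 5 to 9 for GPATCH8 loss in SRSF2 WT, 74 to 88 in P95H, 0 to 1 for the P95H interaction and 1 to 4 for U2AF1 WT. Leaving out the only sgRenilla library of an SF3B1 genotype gives no fit. In the K700E interaction PRPF38B turned to 10.5 points in run 1 alone, against -50.2.

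With a replicate block on guide, K700E gave 26. With sequencing run as a replicate block, where the 2 runs of a library were entered as separate columns and so counted as replicates, GPATCH8 loss in the SF3B1 panel gave 38 and SUGP1 loss 11. With replicate number as a replicate block, P95H gave 2, GPATCH8 loss in SRSF2 WT 5, in P95H 93 and in 293T 0, and the P95H interaction 0. Same-numbered libraries had correlations of their deviations of -0.0483 to 0.0329 (SRSF2) and 0.0750 to 0.402 (U2AF1). They were -0.0251 to 0.0125 in 293T and 0.0108 to 0.0182 for SF3B1 guides. The numbers were not taken as pairing, so spread shared by same-numbered U2AF1 libraries was not removed in the main fits and can hide differences. Depth is unknown, so what it limits cannot be given.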

Other observations

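Several introns that rose with K700E come as pairs that share an end. RFNG, a glycosyltransferase that modifies Notch, had introns that share their upper coordinate (chr17:80007719-80008277 and chr17:80007883-80008277) and differed by 12.1 and 13.8 points. CRELD1 had a pair at 8.58 and 15.4 points and AP5Z1 a pair at 24.2 and 28.2 points. All were called by limma at an adjusted p under 0.05 against WT. These genes were chosen after their values were seen, and introns of a pair share reads.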
